A study of Saccharomyces cerevisiae with 8 samples.

Results

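The transcript response of budding yeast to hydrogen peroxide alone was read from 4 of the 8 arrays in the series, 2 of peroxide-treated cultures and 2 of untreated control cultures. The peroxide cultures were grown to mid-log phase in synthetic complete dextrose medium without carnitine and were then given 0.4 mM hydrogen peroxide for 30 min. The control cultures were grown in the same medium to the same phase and received neither agent. All cultures, controls included, were BY4742, a haploid Saccharomyces cerevisiae strain of the laboratory carrying his3, leu2, lys2 and ura3 mutations, so the response is that of one strain at one dose and one time. The remaining 4 arrays, from cultures grown with carnitine and peroxide and cultures grown with carnitine, entered through the shared estimate of spread and in the final comparison. Members were all 5449 genes with an Affymetrix probe set naming exactly 1 S. cerevisiae gene, of which 5324 had a mean signal above that of nearly all fission yeast probe sets on the same arrays and were tested. Signals are in arbitrary linear units. A change is the log2 difference, peroxide minus control, with its standard error (SE) from limma, and a gene "rose" or "fell" only where the Benjamini-Hochberg adjusted p over all tested genes was below 0.05.

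Hydrogen peroxide oxidises protein thiols and damages lipids, proteins and nucleic acids. In yeast the transcription factor Yap1, held active in the nucleus by peroxide, together with Skn7, induces peroxidases and the thioredoxin and glutathione systems, while Msn2 and Msn4 drive a broader program shared by many stresses. That shared program is known to raise genes of defence, protein repair and carbohydrate stores and to lower genes of ribosome synthesis and growth. The peroxidases draw their electrons from NADPH, which the oxidative branch of the pentose phosphate pathway supplies.

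The peroxide response reached most of the transcriptome. Of 5324 tested genes, 1877 rose and 2103 fell (limma), or 35.3% and 39.5%, the background for every count of a gene group, and 74.8% in either direction. The typical change was small, with a median absolute log2 change of 0.51, and 2677 of the calls were under 2-fold. At 2-fold or more, 679 genes rose (12.8% of those tested) and 624 fell (11.7%). Large rises outnumbered large falls: 98 genes rose and 45 fell by at least 8-fold, and 22 rose and 6 fell by at least 32-fold. The peroxide and control arrays did not overlap for 4667 genes (87.7%).

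Arrays within a group differed little, by a median of 0.10 log2 units between the peroxide arrays and 0.09 between the control arrays, and their median signals lay between 3059 and 3189. Directions are relative to the whole set of genes. Scaling to 5 poly-A spike probe sets would lower every change by 0.63 and scaling to 9 hybridisation spike probe sets would raise it by 0.47, so a rise below 0.63 turns negative under the first and a fall below 0.47 turns positive under the second. The mean log2 signal of the poly-A spikes was 9.56 and 9.64 on the peroxide arrays. On the control arrays it was 8.75 and 9.18, or 0.43 apart, so the poly-A shift is itself uncertain. Among 163 genes with a control mean of at least 40000 units the highest change was 0.47, while the highest signal of any probe set was 79918. Whether signal range limited the rises of bright genes was not tested. The 3′ to 5′ signal ratio of ACT1 was 1.14 and 1.15 on the peroxide arrays and 1.12 and 1.14 on the control arrays, whereas that of WBP1 was 2.32 and 2.56 against 2.06 and 1.95. The ratios of RIP1 (1.34 and 1.31 against 1.18 and 1.16) and SPT15 (2.19 and 2.22 against 2.06 and 2.12) were also higher. That of SRB4 overlapped (5.16 and 6.81 against 5.27 and 6.06). The recorded genotype is MATa, but genes specific to α cells were bright, with MF(ALPHA)1 between 46478 and 51980 units on the 4 arrays, while among a-specific genes MFA2 lay between 5.50 and 8.61, MFA1 between 96.9 and 161 and STE2 between 84.3 and 222. Of the genes labelled as mutant, LEU2, LYS2 and URA3 lay between 3.87 and 4.09 units, but HIS3 lay between 14769 and 15749.

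The largest rises among genes with both group means of at least 100 units were in detoxification, iron uptake and membrane genes. Larger rises lay outside this choice, among them SRX1 (12.18), FRM2 (10.71), OYE3 (9.64) and DAK2 (8.44). For OYE3 the mean was 12.6 units in the control cultures and 10074 in the peroxide cultures. GTT2 (YLL060C), a glutathione transferase, gave 27507 and 27821 units in the peroxide cultures, against 193 and 239 in the control cultures, a log2 change of 7.01 ± 0.12 (adjusted p = 2.70e-08, limma). TSA2 (YDR453C), an inducible cytosolic peroxiredoxin, gave 49475 and 42515 against 559 and 731 in the control cultures, 71.8-fold higher. YHK8 (YHR048W), a presumed multidrug transporter, gave 18738 and 20535 in the peroxide cultures and 251 and 323 in the control cultures. Genes of both ends were chosen for arrays that did not overlap, so their separation is no result. The nitroreductase-like HBN1 (YCL026C-B) rose by 5.72, the uncharacterised YLL056C (YLL056C) by 5.24, the reticulon RTN2 (YDL204W), which shapes endoplasmic reticulum tubules, by 5.18. The uncharacterised YER053C-A (YER053C-A) rose to 11434 and 14096 units in the peroxide cultures, against 379 and 418 in the control cultures. The cell wall mannoprotein FIT2 (5.09) and the ferric reductase FRE1 (4.95), both of iron uptake, the cytosolic catalase CTT1 (4.94), the transaldolase paralog NQM1 (4.86) and the omega-class glutathione transferase ECM4 (4.81) completed the 12.

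Among genes with both group means of at least 100 units, the 12 largest falls included several genes of the dividing cell. Larger falls lay outside this choice, among them GIC1 (-7.85), PCL1 (-6.79) and CLB2 (-5.28). TOS6 (YNL300W), a wall protein, gave 67.1 and 161 units in the peroxide cultures and 3291 and 3043 in the control cultures, a change of -4.93 ± 0.49. CSI2 (YOL007C), found at the bud neck, gave 166 and 218 against 3065 and 3051 in the control cultures, 16.1-fold lower. SGO1 (YOR073W), the shugoshin that protects centromeric cohesion, gave 192 and 233 in the peroxide cultures, against 2587 and 2936 in the control cultures. For TOS6 the peroxide arrays lay more than 2-fold apart, the least even of these 3 genes. The G1 cyclin CLN2 fell by 3.68, the mitotic cyclin CLB1 by 3.48 and the mating-type endonuclease HO, transcribed in late G1, by 3.61. GSY1 (YFR015C), a glycogen synthase, fell by 3.82. The repressor of hexose transporter genes MTH1 (YDR277C) fell by 3.32. AIM20 (-3.68), the peroxisome inheritance factor INP2 (-3.28), the uncharacterised YJR115W (-3.85) and the one-carbon enzyme MTD1 (-3.18) also fell.

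**Figure D1:**
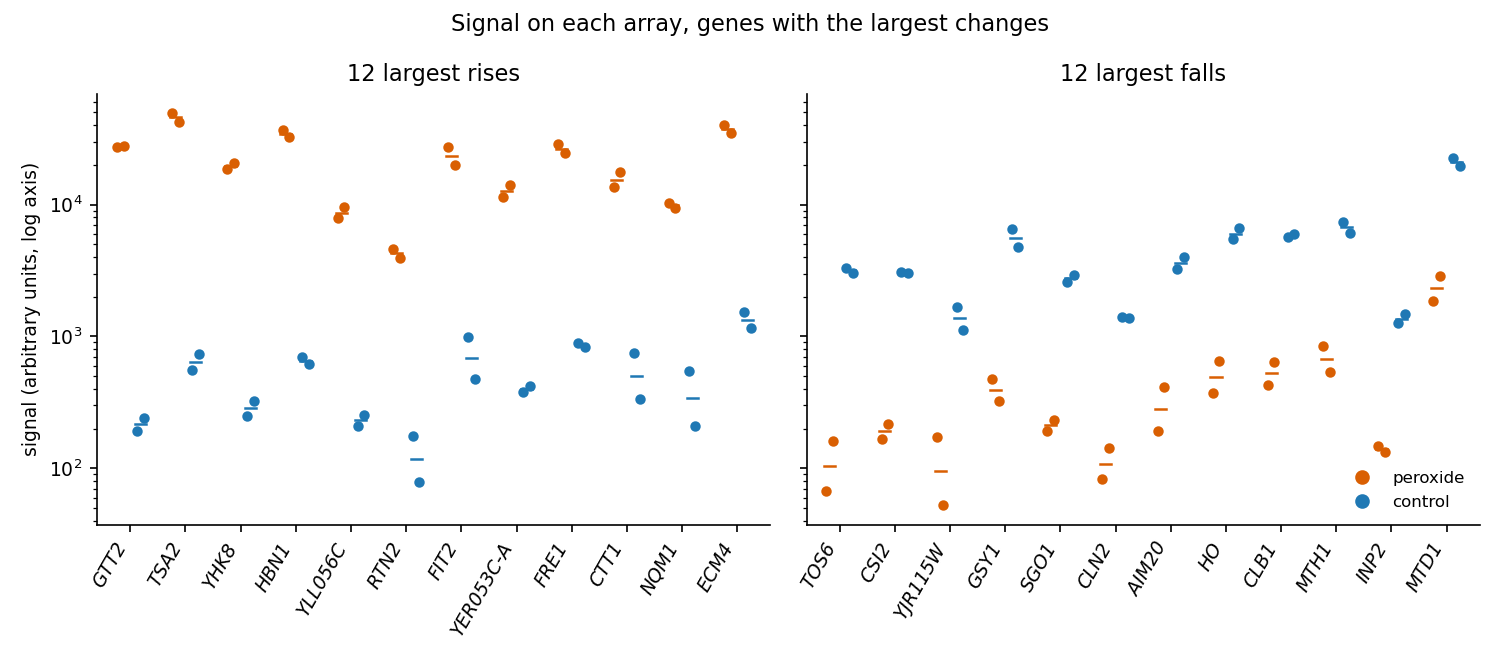
Signal on each array (log axis, arbitrary units) of the 12 largest rises and 12 largest falls among called genes whose group means were both at least 100 units; points are arrays, peroxide left of control, and bars are geometric means. The genes were chosen for non-overlapping arrays, and GTT2 sits at 27507 and 27821 in the peroxide cultures against 193 and 239 in the control cultures.

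All 15 tested genes of the peroxide and superoxide scavengers rose, with a median change of 2.18 against -0.02 over all genes. The size differed by member. PRX1 (YBL064C), the mitochondrial peroxiredoxin, gave 45613 and 36629 units in the peroxide cultures and 7328 and 6531 in the control cultures, a change of 2.56 ± 0.10. CCP1 (YKR066C), the cytochrome c peroxidase of the intermembrane space, gave 46704 and 49959 against 8465 and 7077 in the control cultures. GPX2 (YBR244W), a glutathione peroxidase, gave 52045 and 51226 in the peroxide cultures, against 11478 and 11292 in the control cultures. The 2 arrays of a group were closest for GPX2. Genes of each role were named by moderated t, which favours close replicates and separated groups, so such separation is no result. CCS1, the copper chaperone of Sod1, rose by 1.65 and the peroxidase GPX1 by 1.34. The cytosolic peroxiredoxin AHP1 gave 64176 and 61815 in the peroxide cultures and 48879 and 49932 in the control cultures. Its rise of 0.35, and that of TSA1 of 0.29, became negative changes under poly-A scaling. The rises of the peroxidase HYR1 (0.22) and the superoxide dismutase SOD1 (0.36) were also below 0.63 and so turned negative there.

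In the thioredoxin and glutaredoxin systems 10 of 14 genes rose and 2 fell, and their median of 0.47 turned negative under poly-A scaling. The mitochondrial thioredoxin reductase TRR2 rose by 1.13, the dithiol glutaredoxin GRX2 by 1.16 and glutathione reductase GLR1 by 1.14, while the nuclear monothiol glutaredoxin GRX4, a partner of the iron regulators, fell by 0.73. Glutathione transferases spread widely. Of these, 6 of 7 rose and their median was 3.05. ECM4 (YKR076W) gave 40088 and 34867 units in the peroxide cultures, against 1526 and 1167 in the control cultures. GTO1 (YGR154C), a peroxisomal member, gave 2981 and 2621 in the peroxide cultures and 358 and 319.7 in the control cultures, a change of 3.05 ± 0.24. YCF1, which pumps glutathione conjugates into the vacuole, rose by 0.93.

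Enzymes that make NADPH did not move as a block, since 9 of 19 rose and 8 fell. In the oxidative branch of the pentose phosphate pathway the entry enzyme ZWF1 (YNL241C), glucose-6-phosphate dehydrogenase, gave 35003 and 29220.3 units in the peroxide cultures and 10356 and 10772 in the control cultures, a change of 1.60 ± 0.094. The next steps are each encoded by a pair of genes, and the members of each pair went opposite ways. SOL4 (YGR248W), a 6-phosphogluconolactonase, gave 9252 and 7551 in the peroxide cultures, against 505 and 369 in the control cultures. Its paralog SOL3 (YHR163W) gave 11785 and 12648 against 26951 and 27918 in the control cultures. So SOL4 rose by 4.27 and SOL3 fell by 1.17. GND2 (YGR256W), the minor 6-phosphogluconate dehydrogenase, gave 322 and 286 in the peroxide cultures and 13.8 and 9.82 in the control cultures, a rise of 4.71 from a dim level, while the major form GND1 fell by 0.19, a change that was positive under hybridisation scaling. In the non-oxidative branch the isomerase RKI1 (-1.35) and the epimerase RPE1 (-1.04) fell. NQM1 (4.86) and the minor transketolase TKL2 (4.04) rose, while TAL1, the main transaldolase, changed by -0.07 and did not pass the test (adjusted p = 0.287, limma). Outside the pathway the NAD kinase UTR1 rose by 0.87 and cytosolic isocitrate dehydrogenase IDP2 by 2.67, and the mitochondrial malic enzyme MAE1 fell by 2.32.

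Flavin and aldo-keto oxidoreductases, which reduce quinones, aldehydes and other electrophiles, rose in 15 of 16 genes, 14 of them by 2-fold or more, with a median of 2.15. HBN1 (YCL026C-B) gave 36731 and 32523 units in the peroxide cultures and 698 and 613 in the control cultures. The aryl-alcohol dehydrogenase AAD4 rose by 3.84, though its probe set also matches another gene of that family and the 2 cannot be told apart. Among multidrug exporters 6 of 11 rose and 0 fell, with a median of 0.54 that turned negative under poly-A scaling. FLR1 (YBR008C), a plasma membrane drug antiporter, gave 13148 and 11605 in the peroxide cultures, against 515 and 451 in the control cultures, a change of 4.68 ± 0.098. ATR1 (1.36), the polyamine exporter TPO4 (1.13) and the ABC transporter SNQ2 (1.13) rose by smaller amounts.

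Of 41 transcription regulators 19 rose and 10 fell, a smaller share called in either direction than among all genes. ROX1 (YPR065W), the repressor of hypoxic genes, gave 14637 and 18048 units in the peroxide cultures and 1058 and 772 in the control cultures, a change of 4.17 ± 0.20 (adjusted p = 1.88e-06, limma). CIN5 (YOR028C), a Yap-family factor, gave 9190.2 and 15540.3 against 1132 and 897 in the control cultures. AFT2 (YPL202C), an activator of iron genes, gave 10851 and 12172 in the peroxide cultures, against 1459 and 1258 in the control cultures. For CIN5 the second peroxide array was clearly above the first. The drug regulator YRR1 rose by 2.77, the Yap1 paralog CAD1 by 1.94, the heat-shock factor HSF1 by 1.40 and the proteasome regulator RPN4 by 0.80. XBP1, a stress-induced repressor of cyclin genes, had only 46.5 and 30.8 units in the peroxide cultures and 5.69 and 5.55 in the control cultures. On the falling side stood the glucose repressors MIG1 (-1.72) and MIG2 (-1.95) and IFH1 (-1.49), a coactivator of ribosomal protein genes. Of 14 peroxide and drug regulators 9 rose and 1 fell, SKN7 (-1.07). Of the general stress factors MSN2 rose by 0.77 and MSN4 fell by 0.46, a change that turned positive under hybridisation scaling.

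Chaperones divided by role. All 7 small heat-shock and related genes rose by at least 2-fold, with a median of 3.50, and all 7 cytosolic Hsp70 and Hsp110 genes rose. HSP42 (YDR171W), a small heat-shock protein that gathers misfolded proteins, gave 44588 and 45483 units in the peroxide cultures, against 4025 and 3297 in the control cultures. BTN2 (YGR142W), another such sequestrase, gave 22637 and 32528 in the peroxide cultures and 1229 and 1431 in the control cultures. SSA4 (YER103W), the stress-induced Hsp70, gave 32387 and 34672 against 1891 and 1788 in the control cultures, a change of 4.19 ± 0.059. These 3 were named by moderated t, so the separation of their groups is no result. HSP82 rose by 2.75, SIS1 by 2.26, the disaggregase HSP104 by 2.02, and the mitochondrial HSP78 by 3.52. By contrast, 3 of 4 genes of the Hsp70 system that works on nascent chains at the ribosome fell, with a median of -0.37 that turned positive under hybridisation scaling. SSB2 had the lowest value (-0.75). JJJ1, a J-protein of ribosome biogenesis, fell by 0.86, and the cyclophilin CPR7 by 0.66 while its paralog CPR6 rose by 1.24.

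Proteasome genes rose together by a narrow amount. Of 45 tested, 42 rose and 1 fell, with a median of 0.63 that was no longer above 0 under poly-A scaling, and only 3 rose by 2-fold or more. RPN2 (YIL075C), the largest rise among subunits of the particle itself, gave 16067 and 15842 units in the peroxide cultures, against 8347 and 8121 in the control cultures. The base chaperone NAS2 rose by 1.34. The exception was POC4 (YPL144W), a chaperone of core assembly, with 2398 and 2926 in the peroxide cultures and 6966 and 7416 in the control cultures, a change of -1.44 ± 0.11. Of the ubiquitin and Cdc48 genes 14 of 16 rose, among them the shuttle factor DDI1 (2.32), the conjugating enzyme UBC8 (1.68), polyubiquitin UBI4 (1.65) and UFD1 (1.43).

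**Figure D2:**
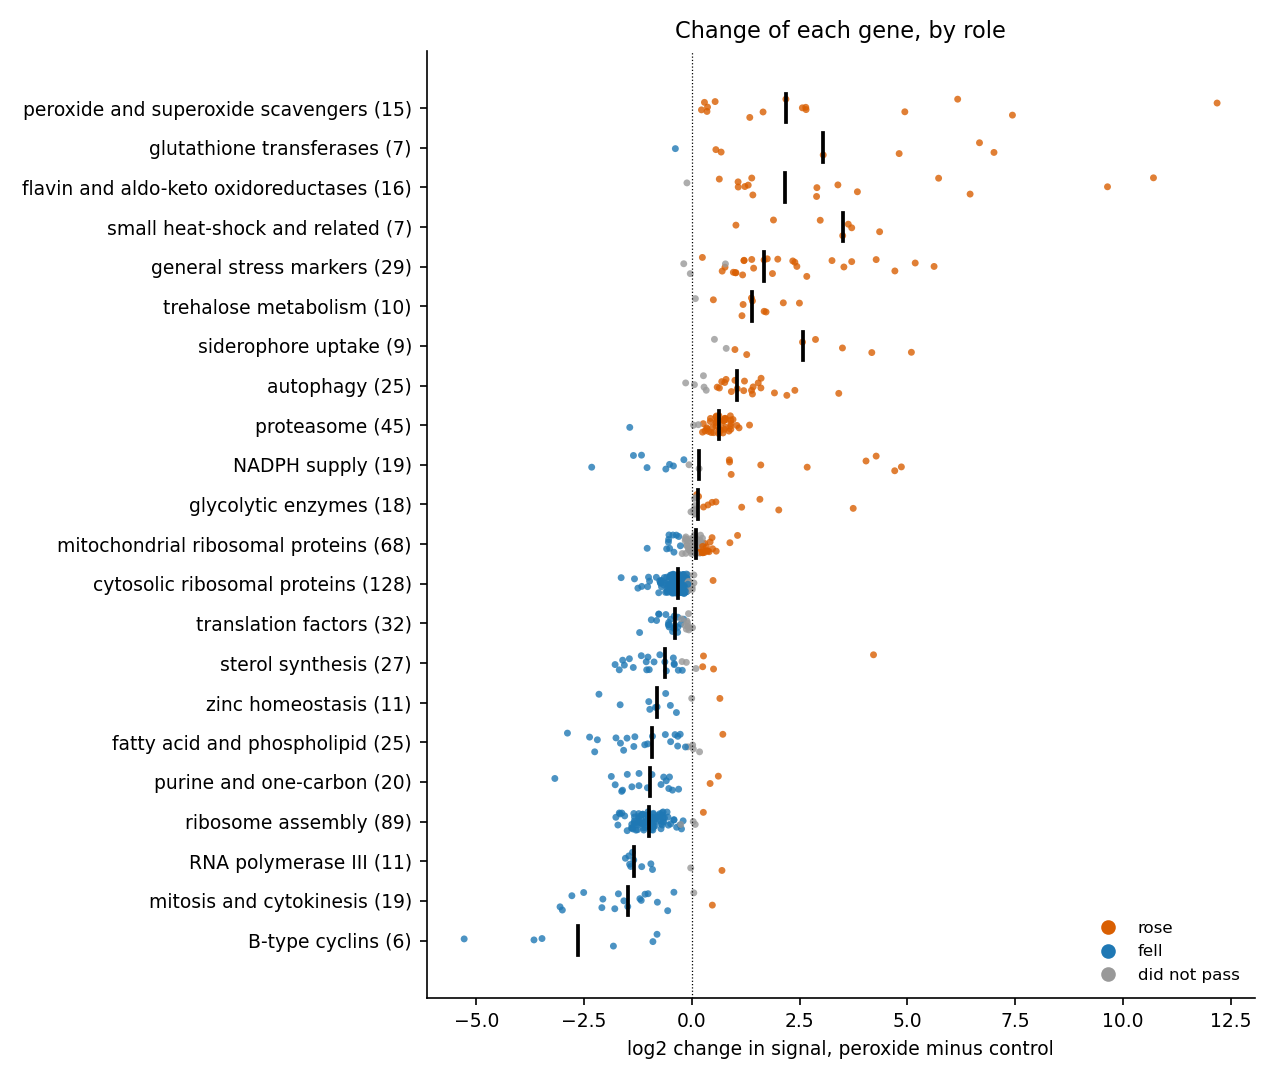
Log2 change, peroxide minus control, of each tested gene in 22 roles (points), coloured by the limma call, with the role's median as a black bar and the number of tested genes in brackets. Small heat-shock genes have a median of 3.50 and B-type cyclins one of -2.65, while proteasome genes lie in a narrow band around 0.63.

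Genes of the cell cycle were lower across most phases, as 82 of 109 fell and 12 rose, with a median of -0.74. Lower signal from fewer cells in a phase and from less transcript in each cell cannot be told apart in these bulk cultures. All 6 B-type cyclins fell, with a median of -2.65. CLB1 (YGR108W) gave 430.4 and 639.8 units in the peroxide cultures, against 5716 and 5962 in the control cultures, a change of -3.48 ± 0.20. The S-phase cyclin CLB5 (YPR120C) gave 455 and 454 in the peroxide cultures and 749.7 and 845 in the control cultures, a smaller change of -0.81 ± 0.10. CLB2 had the largest fall of the 6, at -5.28 ± 0.48. CLB3 fell by 1.82, CLB4 by 0.90 and CLB6 by 3.66, although CLB6 gave 21.1 and 24.1 in the peroxide cultures and 156 and 523 in the control cultures, more than 3-fold apart between the control arrays.

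Of 19 genes of mitosis and cytokinesis 17 fell, with a median of -1.49. CDC5 (YMR001C), the polo kinase, gave 512 and 729 units in the peroxide cultures and 4338 and 4072 in the control cultures. ALK1 (YGL021W), a mitotic haspin-like kinase, gave 432 and 694 against 4246 and 4542 in the control cultures. HST3 (YOR025W), a histone deacetylase of the G2 and M phases, gave 93.1 and 111 in the peroxide cultures, against 845 and 849 in the control cultures. Both peroxide arrays lay below both controls in each, but these genes were named by moderated t, so the separation of their groups is no result. In each the first peroxide array was the lower of the pair. That order held for 17 of the 19 genes, against 45.3% of all tested genes, with a median absolute difference of 0.39 between the 2 arrays. The median of these genes was -1.21 without the first peroxide array and -1.77 without the second. The one rise was the spindle midzone protein ASE1 (0.47), at 0.74 without the first peroxide array and 0.21 without the second; it did not pass in 5 of the 8 repeats that left out an array, and its change was negative under poly-A scaling.

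Replication genes were mixed. Of the origin-licensing genes 11 of 15 fell, led by the helicase subunit MCM7 (-1.97), whereas TAH11, which loads that helicase, gave 4565 and 5302 units in the peroxide cultures and 1413 and 1874 in the control cultures and rose by 1.60. Of 19 DNA replication genes 4 rose and 8 fell. The single-strand binding subunits RFA1 (1.40) and RFA2 (0.92) rose and the clamp POL30 (-0.96) fell. RFA3, a subunit of the same complex given outside the naming rule, changed by -0.57. All 9 histone genes fell, with a median of -0.74, and the linker histone HHO1 (YPL127C) had the lowest value, with 1739 and 2144 in the peroxide cultures against 5578 and 5844 in the control cultures. Daughter-cell separation genes fell in 10 of 13 cases, SUN4 by 1.30 and the wall glucanase DSE2 by 1.05. Among bud-site and polarity genes 11 of 14 fell and 2 rose. GIC1 had the lowest change of all tested genes, -7.85 ± 0.46. Its paralog GIC2 rose by 0.55, which turned negative under poly-A scaling. BUD8 fell by 3.13 and RAX2 by 2.62.

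**Figure D3:**
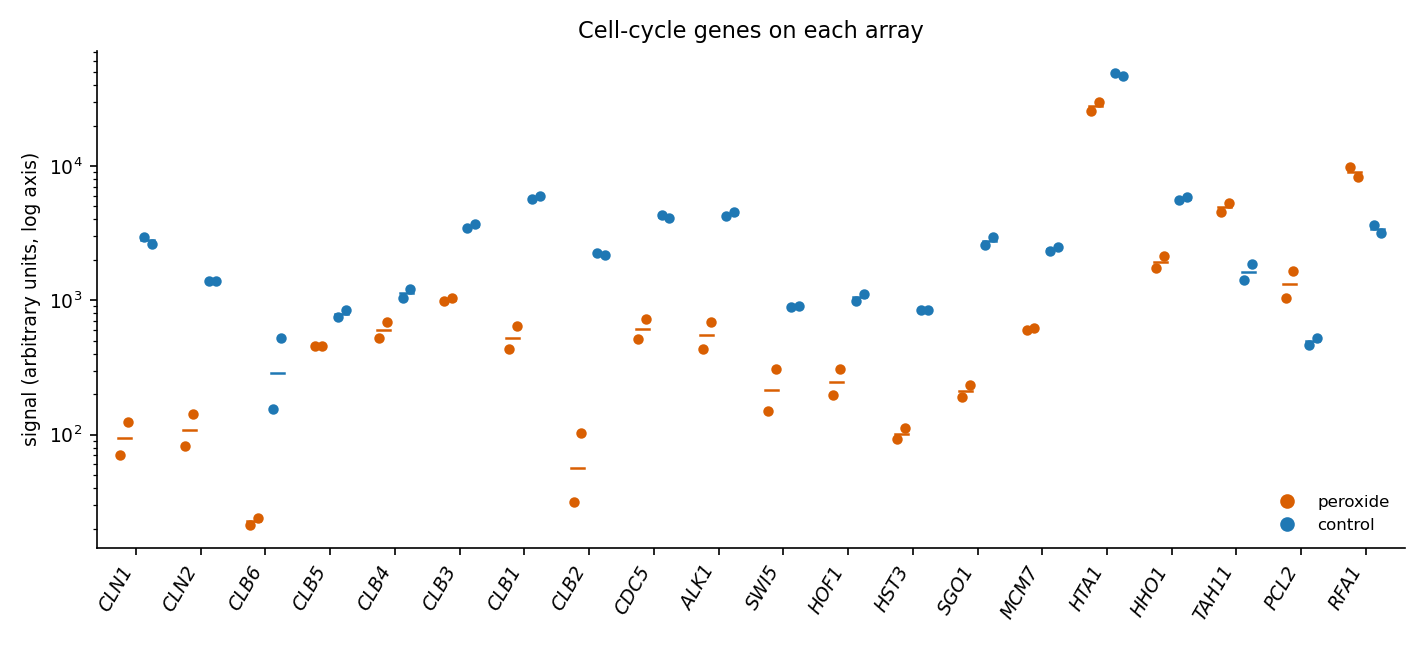
Signal on each array (log axis, arbitrary units) of 20 cell-cycle genes, peroxide left of control, points as arrays and bars as geometric means. Cyclins and mitotic genes lie lower in the peroxide cultures, such as CLB1 at 430.4 and 639.8 against 5716 and 5962 in the control cultures, while TAH11, PCL2 and RFA1 lie higher.

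Genes for making ribosomes fell in near unison. Of 89 ribosome assembly genes 85 fell and 1 rose, and the median was -0.99. UTP20 (YBL004W), of the small-subunit processome, gave 3209 and 3066 units in the peroxide cultures, against 10872 and 10419 in the control cultures. The helicase DBP3 (YGL078C) gave 7349 and 7557 in the peroxide cultures and 20919 and 21249 in the control cultures, 2.83-fold lower. Replicates nearly coincided for both, which naming by moderated t favours. RNA polymerase I lost signal in 8 of 8 subunits (median -1.06), and 9 of 11 genes of polymerase III fell (median -1.35). The polymerase III gene that rose was MAF1 (YDR005C), its repressor, with 4641 and 5336 in the peroxide cultures and 3118 and 3018 in the control cultures, a change of 0.70 ± 0.087. Polymerase II subunits moved less, with 4 of 7 falling and a median of -0.44 that turned positive under hybridisation scaling.

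Genes for the finished ribosome fell in number but little in size. Of 128 cytosolic ribosomal protein genes 114 fell, with a median of -0.32 that turned positive under hybridisation scaling, and 6 fell by 2-fold or more, RPS14B by 1.33 and RPS28B by 1.25 among them. Of 32 translation factors 22 fell and 0 rose, with a median of -0.39 that also turned positive there. The initiation factor NIP1 fell by 0.94. Mitochondrial ribosomal proteins stayed near the middle of all genes, with 20 of 68 risen, 11 fallen and a median of 0.09, which turned negative under poly-A scaling.

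In glucose use, the hexose transporter HXT4 (YHR092C) gave 6316 and 3808 units in the peroxide cultures, against 25731 and 24944 in the control cultures. HXT2 (YMR011W) gave 8477 and 7091 in the peroxide cultures and 27089 and 25999 in the control cultures, a change of -1.78 ± 0.085. Of 9 transporters 5 fell and 0 rose. In the list of sensors and kinases the glucokinase GLK1 rose by 1.21 and the sensor SNF3 fell by 1.57. Of 18 glycolytic genes 10 rose, among them minor isoforms. GPM2 (YDL021W), a phosphoglycerate mutase paralog, gave 15572 and 14317 in the peroxide cultures, against 1097 and 1134 in the control cultures. PYK2, the minor pyruvate kinase, rose by 2.02 and TDH1 by 1.16. The aldehyde dehydrogenase ALD3 rose by 4.71, with 4356 and 4225 in the peroxide cultures and 285 and 94.5 in the control cultures.

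Storage sugars did not move as one. Trehalose genes rose in 9 of 10 cases, both the synthase subunit TSL1 (2.49) and the degrading enzyme NTH1 (YDR001C), which gave 25278 and 23279 units in the peroxide cultures, against 5659 and 5496 in the control cultures. In glycogen metabolism 5 of 12 genes rose and 4 fell. Glycogen synthase GSY1 (YFR015C) gave 475 and 326 in the peroxide cultures and 6536 and 4737 in the control cultures. Its paralog GSY2 (YLR258W) gave 18217 and 18102 against 9852 and 6768 in the control cultures, a rise of 1.15. The glycogenins GLG1 (-1.66) and GLG2 (-0.97), which prime glycogen chains, fell. The glycerol phosphatase GPP2 rose by 1.52 and the glycerol dehydrogenase GCY1 by 2.47.

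Mitochondrial genes showed selected rises. IDH1 (YNL037C), a subunit of the NAD-linked isocitrate dehydrogenase, gave 41252 and 40833 units in the peroxide cultures and 11381 and 11171 in the control cultures, a change of 1.86 ± 0.071. CIT1 (YNR001C), citrate synthase, gave 48387 and 47066 against 16110.1 and 15609 in the control cultures. Cytochrome c, CYC1 (YJR048W), gave 22897 and 23037 in the peroxide cultures, against 3362 and 3861 in the control cultures. In their lists 9 of 21 cycle genes (42.9%) and 20 of 44 respiratory chain genes (45.5%) rose, not far above the 35.3% of all genes. Falls numbered 3 and 9, and in complex IV 4 of 9 genes fell and 3 rose. The minor cytochrome c gene CYC7 rose by 2.20. Of 31 import genes 19 fell, with a median of -0.24 that turned positive under hybridisation scaling, while the subunit MAS1 of the protease that cleaves presequences (YLR163C) rose by 1.89, with 13692 and 13794 in the peroxide cultures and 3532 and 3877 in the control cultures.

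Of the genes of siderophore uptake 7 of 9 rose, with a median of 2.57, whereas in reductive iron uptake 4 of 8 rose and 1 fell. ARN2 (YHL047C), a siderophore transporter, gave 14353 and 9348 units in the peroxide cultures, against 679 and 607 in the control cultures. FRE1 (YLR214W), the highest of the reductive genes, gave 28659.8 and 24529 in the peroxide cultures and 886 and 827 in the control cultures, a change of 4.95 ± 0.095. TIS11 (YLR136C), which degrades mRNAs of iron-using enzymes, gave 14925 and 13458 against 719 and 564 in the control cultures. For all 9 siderophore genes the first peroxide array was the higher, by a median of 0.46 log2 units. The mitochondrial iron carrier MRS4 rose by 2.21 and the scaffold ISU2 by 1.92, whereas the biotin transporter VHT1 fell by 0.71. In zinc homeostasis 9 of 11 genes fell, with a median of -0.81. The high-affinity transporter ZRT1 (YGL255W) gave 534 and 513 in the peroxide cultures and 2262 and 2401 in the control cultures. ZRT2 fell by 1.66. Of 18 phosphate genes 11 fell, with a median of -0.46 that turned positive under hybridisation scaling, among them the transporter PHO90 (-1.76) and the acid phosphatase PHO3 (-2.35), and the nucleotide phosphatase PHM8 rose by 3.07.

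Purine and one-carbon synthesis was lowered in 18 of 20 genes, with a median of -0.98. MTD1 (YKR080W) gave 1867 and 2897 units in the peroxide cultures, against 22401 and 19774 in the control cultures. The amidotransferase ADE4 (YMR300C), first step of purine synthesis, gave 2720.3 and 3565 in the peroxide cultures and 11181 and 10202 in the control cultures. The glycine cleavage subunit GCV3 fell 2.82-fold and the inosinate dehydrogenase IMD4 3.05-fold. In 19 of these genes the first peroxide array was the lower one. In pyrimidine synthesis the CTP synthases diverged, as URA7 fell by 1.51 and URA8 rose by 2.15. Among amino acid pathways LYS20, a homocitrate synthase, rose by 1.79, while the branched-chain enzymes ILV5 (-1.34), ILV3 (-1.31) and LEU9 (-1.54) fell in this strain, which carries lys2 and leu2 mutations. In the lysine, histidine and aromatic list 8 of 26 genes rose and 8 fell, with LYS4 lowest (-1.14). The general amino acid permease GAP1 fell by 1.23, the lowest change of 20 permeases. Of these permeases 1 rose and 6 fell, with a median of -0.01 and AGP3 highest (2.99). In sulfur metabolism 13 of 28 genes rose and 6 fell, including the sirohaem enzymes MET8 (2.99) and MET1 (1.55), the lyase STR3 (1.95) and the regulators MET28 (1.45) and MET32 (1.21) among the rises, and the S-adenosylmethionine synthetase SAM1 (-0.82) among the falls.

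Lipid synthesis fell. Of 27 sterol genes 20 fell and 4 rose (median -0.63), and of 25 fatty acid and phospholipid genes 20 fell and 1 rose (median -0.91). ELO2 (YCR034W), an elongase of very long fatty acids, gave 2253 and 2291 units in the peroxide cultures and 16729.7 and 16850.4 in the control cultures, a change of -2.89 ± 0.049. PSD1 (YNL169C), the mitochondrial phosphatidylserine decarboxylase, gave 1251 and 1234 against 5802 and 6049 in the control cultures. ERG1 (YGR175C), squalene epoxidase, gave 7707 and 8558 in the peroxide cultures, against 25307 and 24114 in the control cultures. ERG5 (-1.78), ERG3 (-1.57) and the reductase HMG1 (-1.45) fell in step. ARE2 (YNR019W), which esterifies sterols for storage, had the largest rise of both lists, 4.21. It gave 1494 and 1478 in the peroxide cultures and 55.8 and 115 in the control cultures.

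Early secretory genes followed the falls, with 19 of 20 translocation and glycosylation genes lower (median -0.54), such as the GDP-mannose transporter VRG4 (-1.23) and the mannosyltransferase PMT4 (-1.17). The thiol oxidase ERO1 (YML130C), which drives disulfide formation, gave 19437 and 19262 units in the peroxide cultures, against 6907 and 7048 in the control cultures, a rise of 1.47. The protein disulfide isomerase EUG1 fell by 1.19 and the stress sensor IRE1 by 1.07. In the cell wall SPI1 (2.34) and YGP1 (1.87), both known to be raised by stress, rose, and the chitin transglycosylase UTR2 (YEL040W) fell by 3.10, with 2117 and 3066 in the peroxide cultures and 22007 and 21723 in the control cultures.

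Of 25 autophagy genes 20 rose and 0 fell, with a median of 1.05. ATG8 (YBL078C), the ubiquitin-like protein of the autophagosome membrane, gave 16064 and 14221 units in the peroxide cultures, against 3702 and 2911 in the control cultures. APE1 (YKL103C), a vacuolar aminopeptidase carried by the selective pathway, gave 36263 and 34273 in the peroxide cultures and 5457 and 5783 in the control cultures. Its receptor ATG19 (1.41), another cargo, the mannosidase AMS1 (2.22), and the receptor ATG34 (2.39) also rose. Peroxisome biogenesis was split, with 12 of 23 genes higher and 6 lower, PEX21 rising by 2.75 and PEX31 3.47-fold lower. In fatty acid breakdown and acetyl transport the dienoyl-CoA reductase SPS19 rose by 3.40 and the carnitine acetyltransferases CAT2 and YAT2 by 2.21 and 1.78, in medium with no carnitine added.

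Repair genes changed in both directions. The inducible ribonucleotide reductase subunit RNR3 (YIL066C) gave 1484 and 1395 units in the peroxide cultures, against 121 and 163 in the control cultures. The housekeeping subunit RNR1 (YER070W) gave 3108 and 2582 in the peroxide cultures and 7445 and 8227 in the control cultures, a change of -1.47 ± 0.12. Of 24 checkpoint and repair genes 12 rose, including the photolyase PHR1 (2.15), the excision nuclease RAD2 (1.42) and the base-excision glycosylase NTG1 (1.39), and 8 fell, including the translesion polymerase REV1 (-1.23) and the S-phase factor TOS4 (-1.87).

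Paralogs were compared directly, in a chosen list of pairs of like function. Of 66 pairs with both genes tested, 22 rose together, 11 fell together and 14 had one gene risen and the other fallen, whereas in 19 one or neither passed. With 35.3% of all tested genes risen and 39.5% fallen, unrelated genes would often be called in opposite directions too. No such comparison was made, so the count is no result about paralogs. The count of opposite pairs was 18 under poly-A scaling and 5 under hybridisation scaling, and 4 pairs were opposite under both, those of SOL3 and SOL4, GSY1 and GSY2, RNR1 and RNR3, and PCL1 and PCL2. Among the opposite pairs PCL2, a cyclin partner of Pho85, gave 1039.5 and 1657 units in the peroxide cultures and 465 and 527 in the control cultures, while PCL1 fell to the dim end of the scale, at 5.27 and 6.16 in the peroxide cultures against 582 and 686 in the control cultures.

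**Figure D4:**
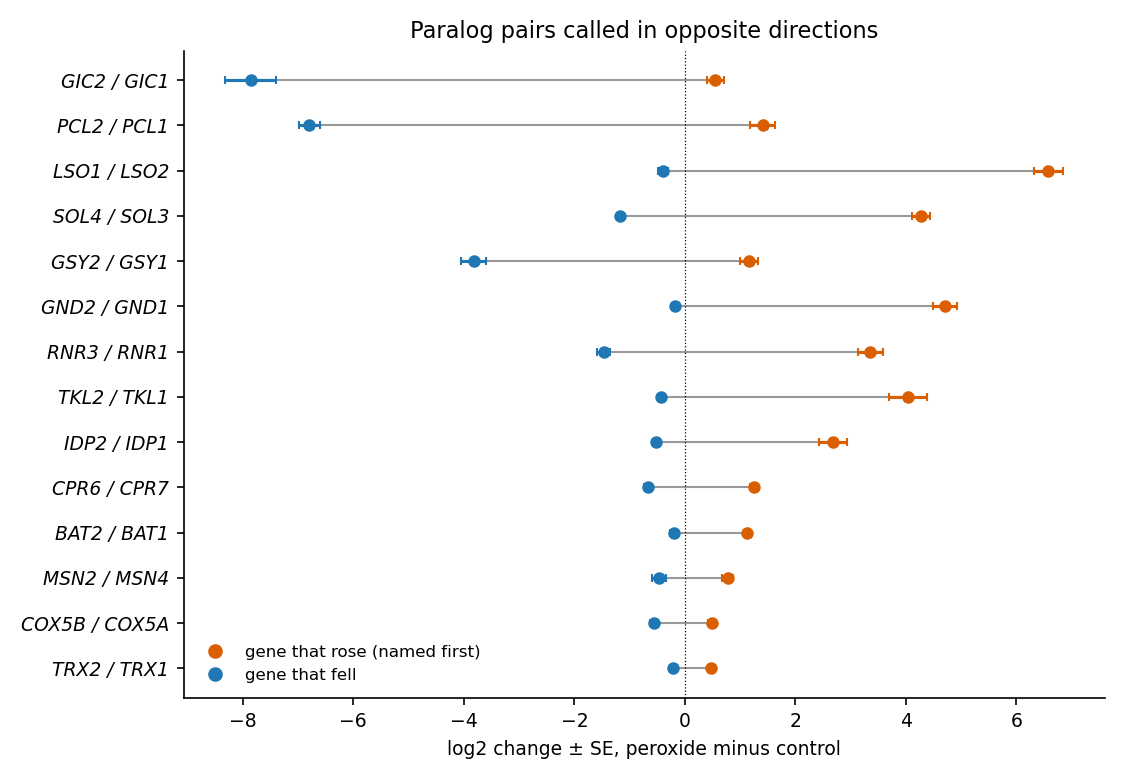
Log2 change ± SE, peroxide minus control, of both genes of the 14 paralog pairs called in opposite directions (limma), with the gene that rose named first. The pair of SOL4 (4.27) and SOL3 (-1.17) is opposite under either spike scaling, whereas the small change of TRX1 (-0.22) is not.

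The response to peroxide alone was set against that of cultures grown with carnitine, as the difference of the 2 log2 changes. It passed the test for 683 genes (12.8% of those tested, limma), with 272 positive and 411 negative differences. In 205 of these the change was in one direction in both and larger without carnitine, in 346 it was larger with carnitine, and in 132 the signs were opposite. The number rests on single arrays, as it lay between 17 and 969 when each of the 8 arrays was left out in turn, and was 2791 under poly-A and 354 under hybridisation scaling. HOF1 (YMR032W), a cytokinesis protein of the bud neck, changed by -2.09 with peroxide alone, against -5.54 with peroxide in carnitine-fed cells, a difference of 3.46 ± 0.35 (adjusted p = 0.00891, limma), and this passed without each of the 8 arrays. The transcription factors SWI5 (-2.06 against -4.40 with carnitine) and SFG1 (-3.13 against -6.08) also fell less with peroxide alone, but each held in only 2 of the 8 repeats. Of the mitosis and cytokinesis genes 9 of 19 passed, all with a positive difference, and their median change was -1.49 with peroxide alone and -2.09 with peroxide in carnitine-fed cells. In the glycogen list 8 of 12 genes passed, all with a negative difference. These 2 roles were singled out after their values were seen.

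**Figure D5:**
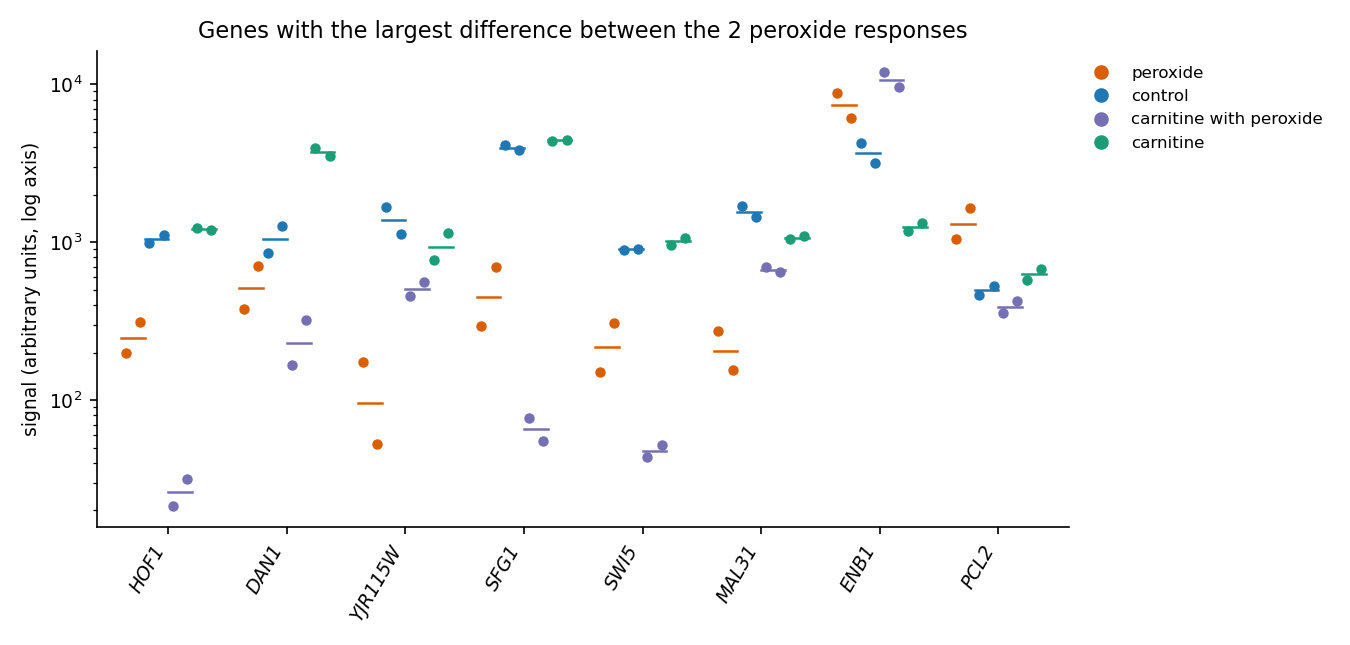
Signal on each of the 8 arrays (log axis, arbitrary units) for the 8 genes with the largest called difference between the peroxide responses without and with carnitine, among those with peroxide and control means of at least 100 units, with bars as geometric means. HOF1 lies at 197 and 311 in the peroxide cultures, against 994 and 1114 in the control cultures, and much lower in carnitine cultures given peroxide.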

How the data were processed

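Total RNA of 8 BY4742 cultures, 2 for each of 4 groups, was labelled with biotin and hybridised to Affymetrix arrays. The deposited values are linear intensity, 1 signal per probe set and array, made by the authors with GCOS, per the submitters' processing notes; how arrays were summarised and scaled, and the version, were not given in the sources used here but bear on every change. The table held 10928 probe sets with signals from 3.20 to 79918, and 5498 named exactly 1 S. cerevisiae gene in the platform table; 12 symbols were updated through RefSeq, and 0 value columns went unused. For genes with several probe sets the brightest was kept. The 125 genes below the 95th percentile of 1746 fission yeast probe sets (4.14 units) were dropped, as were probe sets for fission yeast or without a gene name. Signals were used as deposited, since array medians of the tested genes spread by 5.08%. The 2 arrays per group limit precision.

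The fit to log2 signals used limma 3.58.1 and R 4.3.3 (group means over all 8 arrays, eBayes with a trend, 4 residual and 3.44 prior degrees of freedom), with Benjamini-Hochberg adjustment at 0.05; p-values measure the spread between the 2 cultures of a group. In simulated data of 5324 genes for this comparison, 86% of 1.5-fold and 98% of 2-fold changes were recovered and 7 of 191 calls were false. These figures hold for 191 calls, whereas the peroxide and control arrays gave 3980. The share of false calls among those 3980 was not tested. Gene lists are described by counts and medians, with no set test. Members and lists were chosen with earlier results of these data known. Genes were named by rule: the 12 largest rises and falls among called genes with non-overlapping arrays and both group means of at least 100; in each role up to 4 genes by moderated t and the largest change the other way; both genes of opposite paralog pairs; and the 8 largest called differences from the carnitine-fed response among genes with peroxide and control means of at least 100. Alternatives were quantile normalization, median centring, scaling to either spike set, testing all genes or those above the 40th percentile, no trend, an offset of 50, only 4 arrays, a replicate block, all probe sets, a 2-fold minimum and leaving out each array. Plots used matplotlib 3.10.9 (Python 3.11.15). Promoter and protein sequences were not used here.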

Additional observations from a re-analysis of the deposited data

Results flagged for a closer look

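For 8 genes, the largest called differences among genes with peroxide and control means of at least 100 units, the response to peroxide alone differed from that of carnitine-fed cells by the test of the difference itself (limma). The difference of log2 changes, without minus with carnitine, was 3.46 for HOF1, 2.95 for SFG1, 2.34 for SWI5 and 2.09 for PCL2, all genes of the cell cycle or of cell separation. DAN1, a wall mannoprotein known from anaerobic growth, differed by 3.01, changing by -1.01 with peroxide alone and by -4.02 in carnitine-fed cells. The difference was negative for the uncharacterised YJR115W (-2.96), for the maltose permease MAL31 (-2.25), which changed by -2.92 with peroxide alone and by -0.67 in carnitine-fed cells, and for the enterobactin transporter ENB1 (-2.10), at 8774 and 6142 units in the peroxide cultures and 4227 and 3191 in the control cultures. When each of the 8 arrays was left out, HOF1 passed in 8 of 8 repeats, DAN1 in 3, YJR115W in 1, SFG1 and SWI5 in 2, and MAL31, ENB1 and PCL2 in 4.

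A signal also appeared outside the tested genes. One of 8 control probe sets for the large ribosomal RNA gave 35693 and 30255 units in the peroxide cultures, against 4002 and 1749.6 in the control cultures, a log2 change of 3.63, while the other probe sets for that RNA changed by 0.00063 to 0.61. In carnitine-fed cells it gave 24166 and 15887 with peroxide and 4621 and 8918 without. The probe set for 5.8S ribosomal RNA gave 13899 and 11320 units in the peroxide cultures, against 6356 and 6047 in the control cultures. Its log2 change was 1.02. The part of these signals in the results above was not tested.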

How the results depend on the processing

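The count that rose was 571 under poly-A and 2966 under hybridisation scaling, 1168 with the 40th percentile filter, which tests fewer genes, and 679 with a 2-fold minimum. The count that fell was 823 under hybridisation scaling and 624 with the 2-fold minimum. Leaving out each array gave 1712 to 1860 rises and 1899 to 2079 falls, and 3386 genes kept their call in all 8 repeats. The count that differed from the carnitine-fed response was 2791 under poly-A and 354 under hybridisation scaling, 449 with no filter, and 17 to 969 without 1 array, 969 without the first peroxide array; the cause was not tested. Opposite paralog pairs numbered 5 under hybridisation scaling and 5 with the filter. Lists with a median above 0 numbered 21 of 36, and 8 under poly-A scaling.

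Under poly-A scaling the changes of AHP1 (-0.28), TSA1 (-0.34) and ASE1 (-0.16) turned negative, as did those of HYR1, SOD1 and GIC2. So did the medians of thioredoxin and glutaredoxin genes (-0.16), efflux pumps (-0.090), proteasome genes (-0.0043) and mitochondrial ribosomal proteins (-0.55). Under hybridisation scaling GND1 (0.28), TAL1 (0.40) and TRX1 (0.25) turned positive, as did MSN4. The medians of translation factors (0.079), import genes (0.23), cytosolic ribosomal proteins (0.15), ribosome-linked Hsp70 genes (0.10), polymerase II (0.025) and phosphate genes (0.010) also turned positive. Of 201 named genes followed through the alternatives 199 passed the test. A further 8 lost the call under poly-A and 7 under hybridisation scaling. Leaving out 1 array ended the call of ASE1 in 5 of 8 repeats (lowest 0.21, without the second peroxide array) and of DAN1 in 4 (-0.55 without the first). These were the only genes of the 201 to lose it there, and BAR1 and TAL1 gained one. Depth is not defined for arrays, and changes of bright or dim probe sets may be limited by signal range, which was not tested.

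Same-numbered arrays did not deviate together, with correlations of deviations from -0.11 to 0.13, so numbers were not used as pairs. With the replicate block 1892 genes rose, 2112 fell and 863 differed from the carnitine-fed response.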

Other observations

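Aminoacyl-tRNA synthetases moved in both compartments. Of 19 cytosolic enzymes 10 fell and 1 rose, with FRS2, a phenylalanine enzyme subunit, falling by 0.93. Of 14 mitochondrial enzymes 7 rose and 3 fell, with MSF1, their phenylalanine enzyme, at 1704 and 1730.4 units in the peroxide cultures and 776 and 849 in the control cultures, a rise of 1.08. The difference between the compartments was not tested.

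Of 26 tested genes of cell identity and pheromone response 9 rose and 8 fell, shares no higher than those of all genes, in cultures given no pheromone. The a-factor exporter STE6, normally low in α cells, gave 357 and 282 units in the peroxide cultures, against 107 and 68.0 in the control cultures, and rose by 1.89. The pathway kinase STE11 rose by 1.21 and the phosphatase MSG5 fell by 1.14. Other a-specific genes did not follow: STE2 fell by 1.12, and BAR1 gave 13.4 and 10.2 in the peroxide cultures and 16.9 and 13.4 in the control cultures and did not pass the test.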
